A study of Mus musculus with 8 samples.

Results

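The kidneys of heterozygous Umod C93F males were compared with a pool of wild-type kidney RNA on 8 spotted cDNA arrays. The comparison takes in 4 of the 8 mutant mice of the series, those whose labels carry the C93F allele, each hybridised on 2 arrays with the Cy3 and Cy5 dyes exchanged. The other 4 mice, homozygous for the allele A227T of the same gene, are used only where C93F is set against them. The C93F mutants come from an ENU mutagenesis line on the C3HeB/FeJ background and were examined at 38 weeks of age according to the methods, while the labels give 39 without a unit, and their controls were wild-type males of the same line and age. The methods count 4 wild-type littermates for A227T and give no number for C93F, while the labels speak of a pool from 6 control animals. The A227T mutants were 17 weeks old according to the methods, with 19 in the labels, and had a wild-type pool of their own, so that allele, zygosity, age and pool cannot be told apart in a comparison of the lines. Because the pool is a single control sample, the p-values rest on the spread between the 4 mutant mice alone and hold nothing of the variation among wild-type animals. Each array element is a cDNA clone, and a ratio is the log2 of mutant over wild-type signal, averaged over the 2 arrays of a mouse.

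Umod encodes uromodulin, the main protein of normal urine, which epithelial cells of the thick ascending limb in the loop of Henle make, fold in the endoplasmic reticulum and release at the apical membrane. Missense alleles that change a cysteine of the protein hinder its maturation, so that it is held back in the endoplasmic reticulum of these cells and causes a dominant tubulointerstitial kidney disease. The proximal tubule lies upstream of this segment, makes up most of the mass of the renal cortex, reclaims phosphate, organic acids, amino acids and glucose from the filtrate, and burns mainly fatty acids.

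The C93F arrays were dim. The share of spots that reached 2 times their local background in the red or the green channel ran from 15.3% to 42.4% over the 8 C93F arrays and from 56.8% to 74.0% over the 8 A227T arrays, and both arrays of mouse 4 lay at the low end. An element was tested when it passed this threshold on both arrays of at least 3 mice, which left 3343 of 20742 elements in C93F against 9296 in A227T. The kidney origin of the RNA was visible in 4 of the 7 proximal tubule markers, which were tested and bright, and in Umod itself, while the other 3 proximal tubule markers had no element of that name. Slc12a1, a further marker of the thick ascending limb, was not 2 times the background in either channel of any array. Of the fat markers, Adipoq and Ucp1 failed the threshold on all 8 arrays in both channels, and Fabp4 passed on 5 arrays in each. Of the liver markers, Alb failed on all arrays and Apoa1 passed on 1 in the wild-type channel. The brighter element of the adrenal marker Star passed on 4 arrays in the mutant and 3 in the wild-type channel, and none of these elements met the criterion for testing. The direction of the ratios is likely rather than settled, since it follows the processed ratios that the authors deposited and the legends of the study. If the scan names were taken at face value, each sign would flip, and the counts below would read 34 higher and 1 lower.

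**Figure D1:**
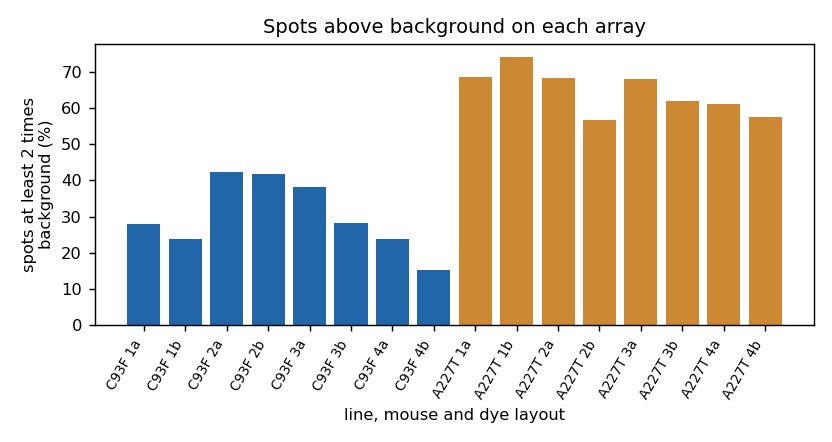
Spots that reached 2 times their local background in the red or the green channel, as a percent of all spots on the array, for each array of the 4 C93F mice (blue) and the 4 A227T mice (orange), with a and b for the 2 dye layouts of a mouse. The C93F arrays span 15.3% to 42.4% and all lie below the A227T arrays, which start at 56.8%.

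Almost all elements that differed clearly between C93F kidney and the wild-type pool were less abundant in the mutants. At a Benjamini-Hochberg adjusted p under 0.10 (limma) together with a fold above 1.4, 35 of the 3343 tested elements were called, which is 1.05% of them. Of these, 34 were lower (1.02% of the tested elements) and 1 was higher (0.0299%). The 35 elements stood for 30 named genes and 3 clones without a name. The arrays as a whole were not shifted: the median over all tested elements was 0.02 on the log2 scale and 1444 of them (43.2%) lay below 0. The imbalance was one of size. Between 0.1 and 0.2 in absolute log2 ratio there were 506 elements above 0 and 350 below, between 0.2 and 0.3 there were 70 above and 139 below, and between 0.3 and 0.4 there were 14 above and 72 below. Beyond 0.5 there was 1 element above 0, Scd1, against 33 below.

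With the adjusted p alone and no limit on the fold, 797 elements passed (23.8%), 307 of them higher (9.18%) and 490 lower (14.7%). At an unadjusted p under 0.05 the number was 1061. All 4 mice were above 0 for 675 elements and below 0 for 649. Ratios of the tested elements correlated between pairs of mice with r from 0.537 to 0.628; this is across elements, which are not independent replicates. In whole kidney RNA, fewer cells of a type and less RNA per cell cannot be told apart, and this holds for each result below. Values after ± are standard deviations over the 4 mice (n = 4), and adjusted p-values are those of limma over the 3343 elements.

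**Figure D2:**
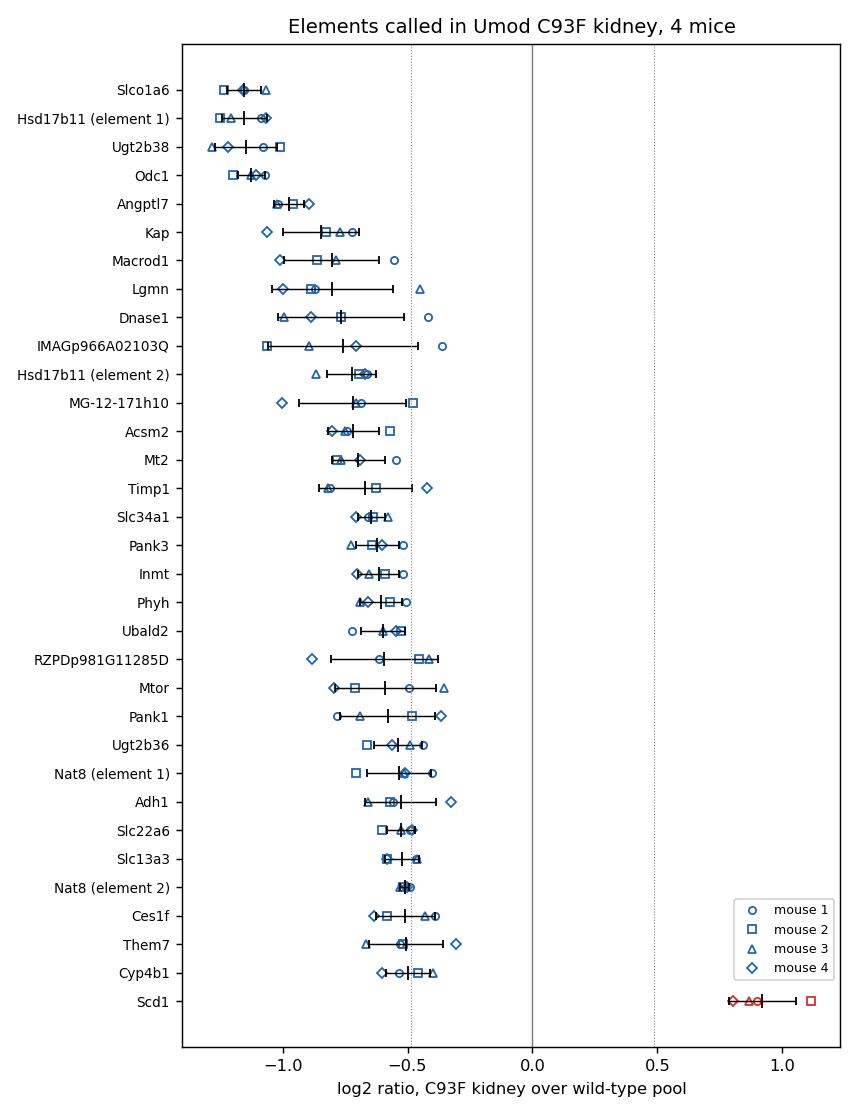
Log2 ratio of C93F kidney over the wild-type pool for 33 of the 35 called elements, in order of their mean, with a symbol for each of the 4 mice, a vertical tick for the mean and bars of 1 SD (n = 4); blue elements were lower and the red element was higher. Dotted lines mark 1.4-fold, and no mouse of any plotted element lies on the other side of 0.

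Transporters of the proximal tubule were among the elements that fell most. Slco1a6, encoding an organic anion transporter of the apical membrane in the mouse kidney, stood at -1.16, -1.24, -1.07 and -1.16 in mice 1 to 4. The 4 mice lay close together and far from 0, and the mean was -1.15 ± 0.07, a 2.23-fold decrease (adjusted p = 6.01e-07). Its mutant channel was 2 times the background on 3 of the 8 arrays and its wild-type channel on all 8. Slc34a1, the sodium-phosphate cotransporter that reclaims most of the filtered phosphate, stood at -0.66, -0.64, -0.58 and -0.71. The 4 mice differed little, and the mean was -0.64 ± 0.05 (adjusted p = 2.47e-05). Slc22a6, the basolateral organic anion exchanger OAT1, fell by 0.53 on the log2 scale (SD 0.06, adjusted p = 6.86e-05), and Slc13a3, which takes up dicarboxylates, by 0.52 (SD 0.07, adjusted p = 8.56e-05). With print-tip loess, which normalizes each printing block on its own, and in the authors' processed ratios, Slc34a1 (-0.43 and -0.42) and Slc22a6 (-0.30 and -0.26) still passed the adjusted p but not the fold. RZPDp981G11285D, a clone printed at a position that the platform names Slc6a19, was also called (-0.59 ± 0.21); since the clone differs there from that of the other line, the name is not settled.

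Slc34a1, Slc22a6 and Slc13a3 are on a list of 19 tested genes of the first segments of the proximal tubule, S1 and S2, and Slco1a6 is on that of the last segment, S3. Of the 19 genes 14 fell past the adjusted p, 5 of them past the fold as well, and 1 rose, the sulfate transporter Slc13a1 (0.18 ± 0.13, adjusted p = 0.0485). The median of the list was -0.32, beside 0.01 over the 1992 named genes taken by their brightest element. Of these 1992 genes 15.6% fell and 8.03% rose past the adjusted p, the shares to set beside each list count below. Such shares grow with brightness, and the lists were not matched for it. From the dimmest to the brightest of 5 bins of all tested elements, the share lower went from 9.27% to 25.1%. The share higher went from 3.14% to 21.4%. Miox, an enzyme of inositol breakdown in the proximal tubule, fell by 0.25 (SD 0.10, adjusted p = 0.0077). In S3, 5 of 9 tested genes fell and 1 rose, with a median of -0.20; with print-tip loess 4 fell and the median was -0.0986. Both elements of Nat8, an acetyltransferase of the endoplasmic reticulum, were called (-0.53 ± 0.13 and -0.51 ± 0.02), while Aadat, a kynurenine aminotransferase, was higher in all 4 mice (0.40 ± 0.14, adjusted p = 0.00136). Among the organic anion and cation transporters 5 of 8 fell and none rose past the adjusted p. Slc22a2, the organic cation transporter OCT2, was at -0.39 ± 0.11 (adjusted p = 0.000932). Slc17a3, a urate and organic anion transporter, was at -0.47 ± 0.09 and missed the fold. Without mouse 4, the one with the dimmest arrays, 3 of these 8 transporters passed.

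The windows around the transcription start were read for the genes that fell together. Of the 29 named genes called lower, 26 matched the RefSeq promoter table (GRCm38.p6), with 32 windows of 300 bases from 250 before to 50 after a start. The letters GTTAAT, a half-site of the factor HNF1, which is known for its role in proximal tubule cells (ATTAAC when read on the other strand), occurred on either strand in 6 of the 32 windows (18.8%) and in 7.1% of all 32851 windows of the table. TATAAA, the letters of a TATA box, occurred on either strand in 9 of the 32 (28.1%) and in 13.6% of all. These matches are a description of letters and show no binding. The 32 windows belong to genes bright enough in kidney to be tested, whereas the table is not limited to such genes. The shares among all tested genes were not counted, so the higher shares are not a result on the lower genes. Below, 2 transporter promoters with GTTAAT are shown beside that of Kap, an androgen-regulated gene described in the next paragraph. Capitals mark GTTAAT on either strand for Slc34a1 and Slc22a6, and TATAAA for Slc34a1 and Kap. Counted from the start, TATAAA begins at 16 in Slc34a1, after the start, and at -31 in Kap.
Slc34a1, plus strand, chr13:55399398-55399697: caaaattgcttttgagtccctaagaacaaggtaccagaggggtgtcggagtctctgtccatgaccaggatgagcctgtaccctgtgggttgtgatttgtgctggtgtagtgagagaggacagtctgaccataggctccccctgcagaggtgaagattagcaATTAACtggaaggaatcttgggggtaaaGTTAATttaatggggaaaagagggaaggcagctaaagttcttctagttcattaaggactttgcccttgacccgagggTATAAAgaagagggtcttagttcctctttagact
Slc22a6, plus strand, chr19:8617746-8618045: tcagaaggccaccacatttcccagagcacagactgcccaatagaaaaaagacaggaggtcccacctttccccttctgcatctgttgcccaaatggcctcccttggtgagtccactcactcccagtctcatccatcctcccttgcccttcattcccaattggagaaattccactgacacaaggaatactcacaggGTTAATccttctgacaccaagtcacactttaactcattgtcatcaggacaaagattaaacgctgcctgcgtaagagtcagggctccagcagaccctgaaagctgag
Kap, minus strand, chr6:133853618-133853917: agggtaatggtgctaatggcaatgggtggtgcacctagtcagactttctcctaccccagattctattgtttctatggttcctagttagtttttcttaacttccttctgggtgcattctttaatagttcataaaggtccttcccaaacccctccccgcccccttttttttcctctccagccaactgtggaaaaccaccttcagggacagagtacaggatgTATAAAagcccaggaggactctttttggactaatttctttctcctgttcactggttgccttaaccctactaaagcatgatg

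Genes that respond to androgens in the mouse kidney formed the list with the lowest median among those with more than 1 tested gene, at -0.50, and 7 of its 9 tested members fell, 5 of them called. Odc1, ornithine decarboxylase, the first enzyme of polyamine synthesis, was at -1.07, -1.20, -1.13 and -1.10 in the 4 mice. No mouse stood apart, and the mean was -1.12 ± 0.05, a 2.18-fold decrease (adjusted p = 6.01e-07). A second Odc1 element was lower by less, at -0.20 ± 0.10 (adjusted p = 0.0199). Kap, the kidney androgen-regulated protein of the proximal tubule, was at -0.72, -0.82, -0.77 and -1.06, lowest in mouse 4 (mean -0.85 ± 0.15, adjusted p = 2.89e-05). Hsd17b11, a short-chain dehydrogenase of lipid droplets that acts on steroids, was called on both of its elements. The first was at -1.09, -1.25, -1.21 and -1.07, with a mean of -1.15 ± 0.09 (adjusted p = 7.24e-07), and the second at -0.72 ± 0.10 (adjusted p = 2.47e-05). Cyp4b1, a fatty acid hydroxylase, was at -0.50 ± 0.09, just past the fold, and Adh1, an alcohol dehydrogenase that also acts on retinol, at -0.53 ± 0.14. Cyp7b1, an oxysterol hydroxylase, fell without reaching the fold (-0.35 ± 0.10, adjusted p = 0.00122). All animals were males, and hormone levels are not part of these data. Among the 5 tested genes of polyamine metabolism Odc1 was the only one that fell: Amd2 was higher (0.16 ± 0.07, adjusted p = 0.0325) and the other 3 did not pass the test.

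Enzymes that conjugate and oxidise small molecules moved in both directions. On the list of cytochromes P450 and b5, 5 of 10 tested genes fell and 2 rose, Cyp27a1 (0.17 ± 0.08) and Cyp17a1 (0.17 ± 0.10), both sterol hydroxylases. On the list of aldehyde, alcohol and aldo-keto metabolism 5 of 12 fell and 1 rose. Ugt2b38, a UDP-glucuronosyltransferase, was at -1.08, -1.01, -1.28 and -1.22, with a mean of -1.15 ± 0.12 (adjusted p = 1.4e-06). The related Ugt2b36 was at -0.54 ± 0.10 (adjusted p = 0.000145), and Ugt1a6a at -0.24 ± 0.03 (adjusted p = 0.00383), so that 3 of the 5 tested genes of this list fell and none rose. Spotted cDNA clones can bind transcripts of near-identical family members, so values of the Ugt2b, Nat8, Acsm, Serpina1 and alpha globin genes may be shared within each family. Of 10 tested steroid dehydrogenases, Hsd17b11 was the only one called, and Dhrs4, which reduces retinal and other carbonyls, fell by 0.38 (SD 0.12, adjusted p = 0.00116). The 2 cytochromes b5, which carry electrons to other enzymes, both fell, Cyb5b by 0.48 (SD 0.10) and Cyb5a by 0.43 (SD 0.08). Ces1f, a carboxylesterase, was called at -0.51 ± 0.12, and Akr1a1, an aldehyde reductase, was at -0.30 ± 0.12 without a call. IMAGp966A02103Q was called at -0.76 ± 0.30 and ranged from -0.36 to -1.06 among the mice. This clone sits at the position of the aldose reductase clone s1-Akr1b3 in the scans of the other line and carries no name in the platform table.

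Breakdown of fatty acids was represented by 19 tested genes of oxidation and the peroxisome, of which 10 fell, 4 of them called, and none rose. Phyh, the peroxisomal enzyme of phytanic acid oxidation, was at -0.50, -0.57, -0.69 and -0.66 (mean -0.61 ± 0.08, adjusted p = 4.85e-05). The 2 called pantothenate kinases, which start the synthesis of coenzyme A, were at -0.58 ± 0.19 (Pank1) and -0.62 ± 0.09 (Pank3). The mutant channel of Pank3 was not 2 times the background on any of the 8 arrays, so its decrease is given as a bound. With the main processing this was 1.54-fold, from normalized channel levels of 7.08 in the mutants and 7.70 in the pool on the log2 scale. It equals the estimate itself and depends on the processing, since Pank3 was not called without background correction. Such bounds set the brighter channel against the lowest signal that passed the threshold on each array or the element's own signal, whichever was higher. The median of this list was -0.14. Of 2 elements of Acsm2, a medium-chain acyl-CoA synthetase, MG-12-219i14 was called (-0.72 ± 0.10) and the brighter was at -0.09 ± 0.03 (adjusted p = 0.162). Macrod1, a mitochondrial ADP-ribose hydrolase, was at -0.80 ± 0.19, with mouse 1 nearest to 0 at -0.55. Them7, a member of the thioesterase superfamily, was at -0.51 ± 0.15.

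**Figure D3:**
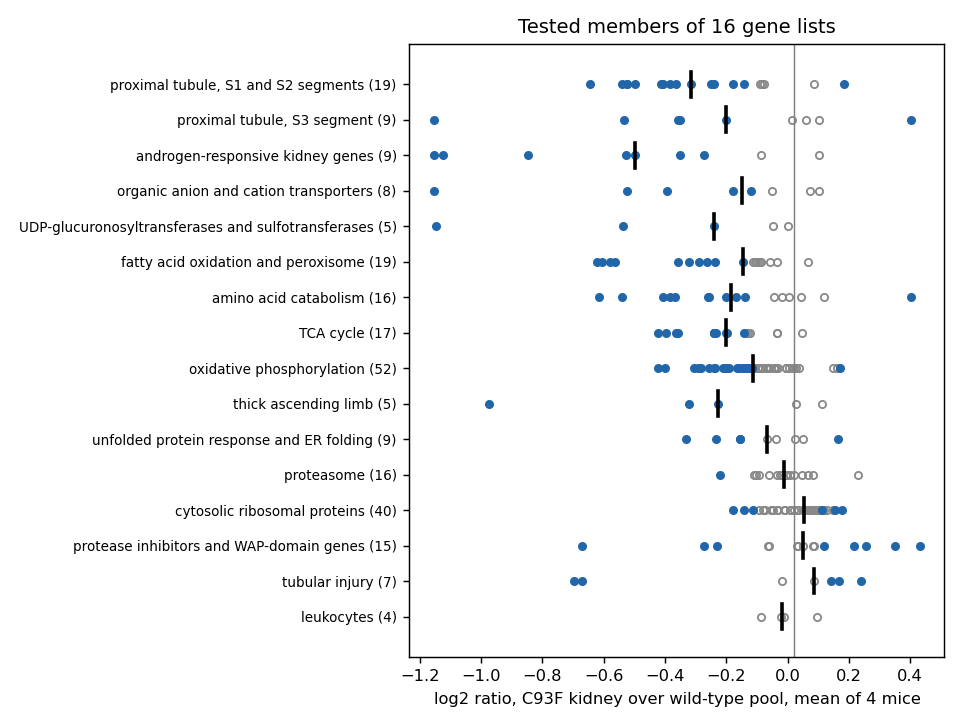
Log2 ratio (mean of 4 mice) of each tested member of 16 gene lists, with the number of tested members after the name; filled points passed an adjusted p of 0.10, open points did not, black bars are medians and the grey line is the median of all 3343 elements, 0.02. The lists of proximal tubule, androgen-responsive and metabolic genes lie mostly left of the line, whereas ribosomal proteins straddle it with a median of 0.05.

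The lists of the tricarboxylic acid cycle and of oxidative phosphorylation held many lower genes and no called one. The former also includes enzymes found outside mitochondria, such as Mdh1 and Idh1. Of 17 tested genes of the tricarboxylic acid cycle 11 fell and none rose (median -0.20), and 16 were below 0. Mdh1, the cytosolic malate dehydrogenase that serves the malate shuttle, was at -0.40 ± 0.07 (adjusted p = 0.000476). Idh1, the NADP-dependent isocitrate dehydrogenase of cytosol and peroxisomes, was at -0.36 ± 0.11 on its brighter element and at -0.01 on the other. Sdhd, a subunit of succinate dehydrogenase, was at -0.42 ± 0.10. Of 52 tested genes of oxidative phosphorylation 24 fell and 1 rose (median -0.11), with Ndufs1, a core subunit of complex I, at -0.40 ± 0.06 and Cox7a2, a subunit of complex IV, at -0.28 ± 0.04. With print-tip loess 18 of the 52 fell, beside 13.3% of all tested elements. Without mouse 4, 16 fell, beside 11.5% of all tested elements. The 40 tested cytosolic ribosomal proteins were 3 up and 3 down past the adjusted p, with a median of 0.05, and no mitochondrial ribosomal protein of 9 passed. Rpl26 had the smallest adjusted p of the ribosomal proteins (0.18 ± 0.04, adjusted p = 0.0165).

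Amino acid catabolism had 10 of 16 tested genes lower and Aadat higher, with a median of -0.19. Inmt, which methylates indole amines, was at -0.62 ± 0.08, and the mutant channel of Inmt passed the background threshold on 1 of 8 arrays. Hgd, the homogentisate dioxygenase of tyrosine breakdown, was at -0.40 ± 0.05 and Qdpr, which regenerates tetrahydrobiopterin, at -0.37 ± 0.04. Both were below 0 on each of the 8 arrays. The list of glycolysis and gluconeogenesis held 11 tested genes, all below 0, of which 5 fell past the adjusted p and none reached the fold.

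The mutated gene itself was measured by an element that was bright on all arrays. Umod was at -0.32, -0.46, -0.15 and -0.36 in the 4 mice. All were below 0, mouse 3 being nearest to it, and the mean of -0.32 ± 0.13 passed the adjusted p (0.00355) but not the fold. A cDNA clone cannot separate the mutant from the wild-type allele. The call on the adjusted p was lost with print-tip loess (-0.11, adjusted p = 0.151), and in the authors' processed ratios (-0.13, adjusted p = 0.237). Of the 5 tested genes on the list of the thick ascending limb 3 fell, Umod, Angptl7 and Cldn10, and none rose. The list was chosen with earlier results of these data known, so the count is no separate result on this segment. Angptl7, an angiopoietin-like secreted protein, was at -1.02, -0.96, -1.02 and -0.89. The 4 mice were tightly grouped, with a mean of -0.97 ± 0.06, a 1.96-fold decrease (adjusted p = 1.18e-06). The element carries the name Angptl7 in the study and Mtor in the platform table; in the RefSeq annotation Angptl7 lies within the span of the Mtor gene. A second element named Mtor, MG-12-140e19, was also called (-0.59 ± 0.20), and another one, MG-6-31j5, was at -0.06 ± 0.04 (adjusted p = 0.302). Cldn10, a claudin of the paracellular cation pathway, was lower (-0.23 ± 0.19, adjusted p = 0.043), though mouse 2 was above 0. It no longer passed on leaving out mouse 1, 3 or 4 (adjusted p from 0.121 to 0.15). A second Cldn10 element was at -0.06.

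Genes of protein folding in the endoplasmic reticulum showed no common increase. Of 9 tested members of that list 4 fell and 1 rose, none of them called, with a median of -0.07. Herpud1, a component of the machinery that returns misfolded proteins to the cytosol, was at -0.33 ± 0.11 (adjusted p = 0.00212), and Pdia4, a protein disulfide isomerase, at -0.23 ± 0.07 (adjusted p = 0.00677). Sel1l, the adaptor of the same retrotranslocation complex, was at 0.16 ± 0.08 (adjusted p = 0.0378) and at 0.04 with print-tip loess, where it did not pass. Hsp90b1, an abundant chaperone of this compartment, was at -0.15 ± 0.09 (adjusted p = 0.0525). Of 16 proteasome genes Psmc6 alone passed (-0.22 ± 0.15), with mouse 3 at -0.0016. Of 23 heat shock and chaperonin genes 5 fell (21.7%, beside 15.6% of all named genes), led by Hspd1 (-0.29 ± 0.08) and Tcp1 (-0.25 ± 0.07). Hspa5, the chaperone BiP, did not reach the brightness threshold and was not tested.

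Secreted and stress-related genes varied in direction. Mt2, a metallothionein that binds zinc and copper, was at -0.55, -0.78, -0.77 and -0.69, all lower (adjusted p = 3.55e-05). Its mutant channel never reached 2 times the background, so the decrease is given as a bound, 1.597-fold with the main processing (6.72 against 7.42 in normalized channel levels). Timp1, an inhibitor of matrix metalloproteinases, was at -0.81, -0.63, -0.82 and -0.42 (mean -0.67 ± 0.19), and Timp3, another such inhibitor, at -0.27 ± 0.13 without a call. The 4 tested Timp3 elements ranged from -0.38 to 0.03, and 3 of them passed the adjusted p. Both Mt2 and Timp1 are on the list of tubular injury genes, where 2 of 7 fell and 3 rose. The 3 that rose did so by little, among them Cd24a, a surface glycoprotein of injured tubules (0.24 ± 0.12), and Cdkn1a, a cell cycle inhibitor (0.17 ± 0.06). Lgmn, the lysosomal protease legumain, was at -0.87, -0.89, -0.45 and -0.9997, mouse 3 being nearer to 0 than the others. Among the 16 tested lysosomal genes 4 fell (25%, beside 15.6% of all named genes), the others of these by 0.20 or less. Fuca1, an alpha-fucosidase, was at -0.20 ± 0.04 on its brighter element and at 0.07 on the other, and Tpp1, a peptidase, at -0.17 ± 0.07. Dnase1, a secreted nuclease, ranged from -0.42 in mouse 1 to -0.995 in mouse 3 (mean -0.77 ± 0.25). Ubald2, of which little is known, was at -0.60 ± 0.09; the platform table names that element Fam110b. The unnamed clone MG-12-171h10 was at -0.72 ± 0.22.

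Scd1, stearoyl-CoA desaturase 1, which makes monounsaturated fatty acids, was the only called element above 0. It was at 0.90, 1.11, 0.87 and 0.80, above 0 on each of the 8 arrays, with a mean of 0.92 ± 0.13 or 1.89-fold (adjusted p = 1.25e-05). Its wild-type channel was 2 times the background on 4 of 8 arrays. The other tested genes of lipid synthesis did not share this size: of 5, Fads2, a fatty acid desaturase, was at 0.18 ± 0.09 (adjusted p = 0.0299) and Me1, malic enzyme, at -0.29 ± 0.09 (adjusted p = 0.00326). The other Fads2 element was on the other side of 0, at -0.09. Below the fold, the largest higher named genes were Serpina1d (0.43 ± 0.16), Ndc1 (0.42 ± 0.28), Aadat, Rgs9 (0.39 ± 0.13), Abraxas2 (0.38 ± 0.17), Actb (0.38 ± 0.07), Serpina1e (0.35 ± 0.07), Meltf (0.35 ± 0.17) and Lsm3 (0.35 ± 0.38). Serpina1d and Serpina1e encode forms of the protease inhibitor alpha-1-antitrypsin, Ndc1 a nucleoporin, Rgs9 a regulator of G protein signalling, Actb beta-actin and Lsm3 a subunit of the U6 snRNA-binding ring. Abraxas2 is the platform's name for an element that the study lists as AC099627. Ndc1 and Lsm3 were carried by mice 1 and 2, at 0.83 and 0.89, with the other mice at 0.35 or below. Actb was above 0 on each of 8 arrays. Of the 15 largest higher elements 5 were unnamed clones, led by MG-8-26p14 at 0.45 ± 0.09. Of the 15 tested protease inhibitors 5 rose (33.3%, beside 8.03% of all named genes), among them Cst3, cystatin C (0.25 ± 0.09). In the same list 3 fell (20%, beside 15.6%).

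Markers of other cell types were sparse among the tested elements. None of the 4 tested leukocyte genes and none of the 4 tested glomerular genes passed the adjusted p. Of 3 endothelial genes Cdh5, VE-cadherin, was lower (-0.25 ± 0.14, adjusted p = 0.0151). Of 2 genes of collecting duct principal cells, Aqp4, a basolateral water channel, was at -0.21 ± 0.02 (adjusted p = 0.00738). Red cell genes fell in 4 of 7: Hbb-b1, a beta globin, was at -0.38 ± 0.10, the 6 tested elements of Hba-a1, an alpha globin, between -0.26 and -0.34, the 2 of Hba-a2 at -0.22 ± 0.14 and -0.25 ± 0.07, and Ank1, a red cell membrane ankyrin, at -0.35 ± 0.06. Mouse 4 was nearest to 0 on all 6 Hba-a1 elements, one of which the platform table names H3f3a. The level of red cell transcripts thus moved in the same direction as most called elements, and its part in them was not tested. Lpl, lipoprotein lipase, on the fat cell list, was at -0.39 ± 0.10, while the other 4 tested members of that list did not pass. Immune genes showed no common direction. Of 14 tested genes of antigen presentation, complement and interferon 3 fell (21.4%, beside 15.6% of all named genes). Among them, Tap1, a peptide transporter, was at -0.33 ± 0.09 and Cfb, complement factor B, at -0.20 ± 0.04. Of 14 genes of the NF-kB pathway and chemokines 1 fell and 1 rose, Ccl7, a monocyte chemokine, by 0.22 (SD 0.05). Igfbp4, an IGF-binding protein, was at -0.46 ± 0.13. In the extracellular matrix list, Mgp, matrix Gla protein, and Col4a1, a chain of basement membrane collagen, rose by 0.32 (SD 0.11) and 0.16 (SD 0.03). Of 19 genes of glutathione metabolism 6 rose (31.6%, beside 8.03% of all named genes) and 4 fell (21.1%, beside 15.6%). Gsto1, an omega-class transferase, was at 0.28 ± 0.09 and Gpx1, a glutathione peroxidase, at -0.32 ± 0.10.

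The calls were concentrated among bright elements. The offset of 50 added to the intensities draws the ratios of dim elements toward 0, and its part in this was not tested. With an offset of 10, 3 elements were called higher and 57 lower. When the tested elements were split into 5 equal bins by mean brightness over both channels, the dimmest bin held 2 called elements and the 2 brightest held 9 and 21. The standard deviation of the ratios over elements grew from 0.10 in the dimmest bin to 0.21 in the brightest, whereas the median spread between mice stayed between 0.0853 and 0.0905. The share of elements below 0 lay between 39.3% and 48.3% in each bin. The share past the adjusted p and lower rose from 9.27% in the dimmest to 25.1% in the brightest bin, and that past it and higher from 3.14% to 21.4%. In the 2 dimmest bins together 3 elements were called, all lower. Of the 34 called lower elements, 21 had a mutant channel above the threshold on all 8 arrays and 31 a wild-type channel, and none was saturated on any array.

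**Figure D4:**
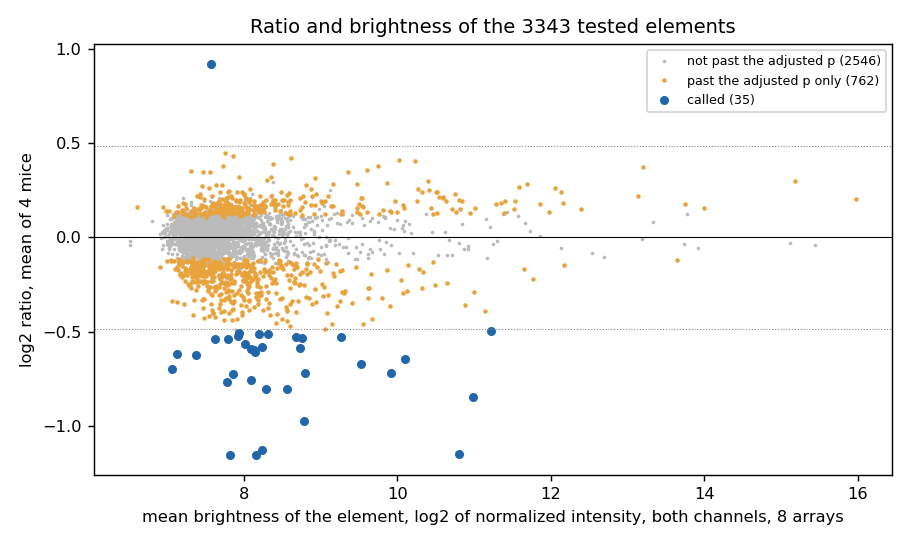
Mean log2 ratio of the 4 C93F mice against the mean brightness of the element (log2 of normalized intensity, both channels) for the 3343 tested elements; grey points did not pass the adjusted p, orange points passed it without the 1.4-fold marked by dotted lines, and blue points were called. Of the 35 called elements 30 lie in the 2 brightest bins.

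On single arrays the dye layout weighed more than the ratio of mutant over wild type. After turning the signs, the 2 arrays of a mouse correlated with r from -0.331 to -0.144 across the tested elements, whereas arrays of the same dye layout from different mice correlated with r from 0.59 to 0.77 before turning. Averaging the layouts removes an additive dye part, and their difference divided by 2 measures it. Its standard deviation over elements was 0.206, against 0.145 for the ratio of mutant over wild type. It exceeded the ratio for 70.3% of all tested elements and for 307 of the 797 that passed the adjusted p, but for 0 of the 35 called. The sign was the same on all 8 arrays for 32 of the 35 called elements, and Ces1f and IMAGp966A02103Q were among the exceptions, with 7 arrays each. Of the elements past the adjusted p, 180 of the 490 lower and 30 of the 307 higher had the same sign on all 8 arrays.

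**Figure D5:**
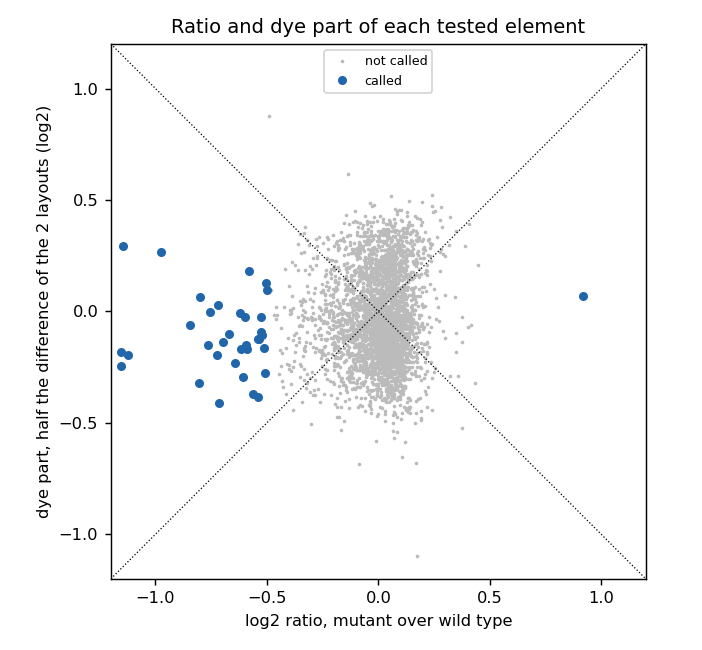
Dye part of each tested element (difference between the 2 dye layouts divided by 2, mean of 4 mice, log2) against its ratio of mutant over wild type (log2). Blue points are the 35 called elements, all of which lie outside the dotted diagonals to the left or right, where the ratio exceeds the dye part.

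Set against the homozygous A227T kidney, 12 of the 30 called elements that could be compared differed between the lines; these elements were chosen by their call in C93F, so that the direction of their difference is no result. Of the 34 elements called lower in C93F, 32 had a value in A227T and 28 of them were below 0 there, as were 48.15% of the 9296 elements tested in A227T. Of the 30 called elements tested in A227T, 3 were called there in the same direction: Scd1 (1.09 ± 0.25), Angptl7 (-0.82 ± 0.16) and Hsd17b11 on its first element (-0.61 ± 0.40). Over all 9296 elements tested in A227T, 169 were called, 75 higher and 94 lower. For Scd1 and Angptl7 the difference between the lines did not pass (difference -0.17, SE 0.11, adjusted p = 0.306, and -0.16, SE 0.09, adjusted p = 0.244; limma over 8 mice). Over the 2186 elements tested in both lines, 115 (5.26%) differed by more than 1.4-fold at an adjusted p under 0.10, 69 of them higher (3.16%) and 46 lower (2.1%) in C93F. Slco1a6 was at -0.23 ± 0.38 in A227T, a difference of -0.93 (SE 0.14, adjusted p = 0.000331), and Slc34a1 at -0.10 ± 0.08, a difference of -0.55 (SE 0.08, adjusted p = 0.000309). The first Odc1 element, at -0.48 ± 0.10 in A227T, differed by -0.64 (SE 0.08). Its second element ran the other way, at -0.20 in C93F and -0.83 ± 0.24 in A227T, a difference of 0.62 (SE 0.109, adjusted p = 0.00089), so that no direction can be given for the gene.

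The largest differences lay in part in C93F and in part in A227T. The clones MG-12-171h10 and MG-14-83g13 were lower in C93F and higher in A227T, with differences of -1.24 and -1.12. Ghitm, a protein of the inner mitochondrial membrane, and Ivns1abp, which binds actin, differed by -0.81 each, mainly through A227T, where they were at 0.63 ± 0.23 and 0.77 ± 0.28. A second Ghitm element differed in the same direction (-0.58, SE 0.101), and another was not tested in A227T. In the other direction Mid1, a ubiquitin ligase of microtubules, was at 0.30 ± 0.10 in C93F and -0.69 ± 0.16 in A227T, and Epha6, an ephrin receptor, at 0.21 ± 0.21 and -0.91 ± 0.17. Epha6 is the platform's name for that element, which the study lists as AC175818, so its identity is not settled. The clones MG-3-107a15, MG-6-25l23, MG-6-16e20 and MG-3-237b19 were likewise called lower in A227T, with differences of 0.998 to 1.19. In C93F neither Epha6 nor any of these clones was called, and of the clones MG-6-16e20 alone passed the adjusted p there.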

How the data were processed

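Kidney RNA of 4 Umod C93F mice, each against a wild-type pool on 2 dye-swapped spotted cDNA arrays, was analysed, with 4 A227T mice for comparison. The authors deposited the scanner's median intensity, foreground and background, of every spot for both dyes, not normalized, and a processed ratio per mouse on a log2 scale, whose centring and direction the value table itself does not state. The authors' methods name filters on background, filters on dye-swap consistency and SAM. The scans listed under mouse 1 correlated best with the processed column of mouse 2 and the reverse (r = 0.869 and 0.871), so numbers 1 and 2 follow the scans.

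Intensities were processed in R 4.3.3 with limma 3.58.1: normexp background correction (offset 50), loess within each array, signs turned to mutant over wild type, and clone spots and then the 2 arrays of a mouse averaged. Elements with a foreground at least 2 times the background in either channel on both arrays of at least 3 mice were tested against 0 with lmFit and eBayes. An element was called at a p under 0.10 after Benjamini-Hochberg adjustment if its fold also exceeded 1.4. Lines were compared with limma over 8 mice, joined by array position, 217 of 20794 of which name a different clone for C93F. Separate mice are the replicates, so p-values measure the spread between these mice. Precision is limited by the number of mice and by the single wild-type pool of each line.

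Names, given to 12621 of 20742 elements, came from the platform annotation. The study's name was used instead where it is a current RefSeq symbol or where the platform gives none. Lists were scored by the brightest element of each gene, with counts and medians only. Named were Umod, the called elements, the 15 largest higher elements, up to 4 members of each list with the smallest adjusted p, the 6 largest differences each way, and cell type markers; single genes beyond these were named after their values were seen. A few elements that these rules name are not reported here. The members and lists were chosen with earlier results of these data known. Alternatives covered background correction, normalization, filters, tests, thresholds, the processed ratios, the direction and each mouse left out.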

Additional observations from a re-analysis of the deposited data

Results flagged for a closer look

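In 30 of the 114 named elements, the difference between the C93F and A227T ratios (log2, C93F minus A227T) passed the test of the difference. This was limma with an adjusted p under 0.10 and a difference over 1.4-fold. Over all 2186 elements tested in both lines, 115 passed (5.26%). Elements were named in part by their call in C93F or by a large difference, so that neither this number nor the directions are a result. The lines also differ in zygosity, age and wild-type pool. Among transporters and proximal tubule genes, the elements that passed were Slco1a6 (-0.93), Slc34a1 (-0.55), Slc17a3 (-0.61), Kap (-0.49) and Nat8 (-0.53). Among metabolic enzymes they were the first elements of Hsd17b11 (-0.54) and Odc1 (-0.64), Macrod1 (-0.62), the called element of Acsm2 (-0.53) and Sdhd (-0.59). The brighter element of Idh1 (-0.63), Gsto1 (-0.62) and Lpl (-0.61) were others. The second Hsd17b11 element did not pass (-0.28, adjusted p = 0.109), and the second Odc1 element differed in the opposite direction (0.62, adjusted p = 0.00089). Mt2 (-0.61), Timp1 (-0.57), Ghitm (-0.81), Ivns1abp (-0.81) and the clones MG-12-171h10 (-1.24) and MG-14-83g13 (-1.12) were lower in C93F as well; the value of Mt2 rests on a mutant channel that stayed below 2 times the background on all 8 C93F arrays. Higher in C93F than in A227T were Mid1 (0.99), Epha6 (1.11), Ccl7 (0.69), Hba-a1 on the element MG-4-2e20 (0.52) and Hba-a2 on the element MG-4-86f7 (0.53), and the clones MG-8-19g21 (0.56), MG-15-158l19 (0.49), MG-3-107a15 (0.998), MG-6-25l23 (1.03), MG-6-16e20 (1.03) and MG-3-237b19 (1.19).

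In 9 of the 114 named elements a single C93F mouse lay apart from the other 3 by Dixon's criterion. The second Hsd17b11 element was at -0.87 in mouse 3 and between -0.69 and -0.66 in the others. Serpina1e was at 0.46 in mouse 2 (others 0.30 to 0.32), and the brighter Idh1 element was at -0.20 in mouse 2 (others -0.43 to -0.40). Hba-a1 on the element MG-8-42b9 was at -0.10 in mouse 4 (others -0.43 to -0.39), Gsto1 at 0.41 in mouse 4 (others 0.21 to 0.24) and Sdhd at -0.57 in mouse 4 (others -0.38 to -0.36). Cyb5a was at -0.31 in mouse 1 (others -0.49 to -0.46), Col4a1 at 0.21 in mouse 1 (others 0.14 to 0.15), and Psmc6 at -0.0016 in mouse 3 (others -0.30 to -0.28). Chance flags about 1 in 20 groups, and over all 3343 tested elements 182 (5.44%) had a mouse apart.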

How the results depend on the processing

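The counts of 1 higher and 34 lower element kept the predominance of lower calls under each alternative except the turned direction, which gives 34 higher and 1 lower by construction. Without background correction 22 elements were lower, with local subtraction 7 were higher and 68 lower, and with a normexp offset of 10 there were 3 higher and 57 lower. In the authors' processed ratios 4 were higher and 47 lower, 30 of the latter among the 34. The stricter filter left 0 higher and 27 lower of 1832 elements, and Scd1 was not tested there; the adjusted p alone passed 307 higher and 490 lower. Leaving out each mouse gave 1 to 3 higher and 33 to 37 lower. Of the 35 called elements 15 were called under all 18 settings. Over 118 elements chosen by the naming rule, 1991 of 2075 alternative values kept direction and side of the adjusted p. A further 77 no longer passed the adjusted p, 7 newly passed it and none reversed, apart from the turned direction. These counts leave out the fold, so they are not counts of calls lost or gained. Leaving out 1 mouse brought Nat8, Ces1f, Adh1, Them7 and Cyp4b1 under the fold (-0.48 to -0.45).

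The difference between the lines had 115 calls, 175 with median centring and 218 with no filter on dim spots; the cause was not tested. With the replicate number as a block it had 115, the same elements; same-numbered mice did not deviate together (r from -0.0634 to -0.000709), so they share only a number. Without mouse 4, 3 rather than 5 organic ion transporters fell, an alternative chosen after seeing the data. Leaving out mouse 4 and print-tip loess moved no other list count examined by over 1.5 times. The oxidative phosphorylation count went from 24 to 18 with print-tip loess and to 16 without mouse 4. The S3 median went from -0.20 to -0.0986 with print-tip loess. Dimness limits the C93F arrays: 3343 of 20742 elements could be tested, and untested elements say nothing about their transcripts.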
